A study of Homo sapiens with 6 samples.

Results

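The genes examined were 43 genes of mitosis and of the G2/M transition, chosen by name for their roles in cell division, among the 30267 genes of an RNA-seq table from renal cell carcinoma cells with and without an RNF25 hairpin. All 43 were found in the table by symbol and all 43 passed the filter on low values, so that each was among the 16554 genes tested. They comprised 8 cyclins, CDK1 cofactors and activators, 5 mitotic kinases, 6 proteins of the spindle checkpoint and the anaphase trigger, 3 centromere proteins, 6 kinesin motors, 5 spindle assembly proteins, 3 cytokinesis proteins, 6 proteins of chromosome condensation and the transcription factor FOXM1. INCENP, a chromosomal passenger protein, was placed with the spindle checkpoint and the anaphase trigger.

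SW839 is an established renal cell carcinoma line. The shRNF25 group held 3 libraries from SW839 cells with an RNF25 hairpin, whose library names all carry the single designation shRNF25B, and the shControl group held 3 libraries from SW839 cells with the pLKO vector. According to the study's methods, hairpin and control plasmids were delivered as lentivirus and the infected cells were selected with puromycin, so that infection and selection were shared by both groups, and the cells of each group were selected populations of a single line. The treatment text of the labels speaks of the shRNF25 plasmid for every sample, controls included, and the groups therefore rest on the titles and genotype labels. Nothing in the labels says that the 3 libraries of a group came from separate cultures, so the p-values measure the spread between these libraries, which may be technical.

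A dividing cell enters mitosis when cyclin B and its kinase CDK1 become active, after CDC25 phosphatases have removed the phosphates that WEE1 placed on CDK1. Polo-like and Aurora kinases then drive centrosome maturation, spindle assembly and chromosome attachment, and the spindle checkpoint holds the anaphase-promoting complex in check until every kinetochore is attached. The transcripts of most of these proteins accumulate together in G2 under the MuvB, B-MYB and FOXM1 transcription factors, for which reason their summed level is widely read as a sign of how many cells of a culture are cycling. RNF25, the gene that was knocked down, encodes a RING-type E3 ubiquitin ligase.

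The libraries held 18647460 to 19943154 reads on genes. RNF25, the hairpin's target, was listed at 694.2, 533.5 and 536.4 normalized counts in the control libraries and at 214.1, 245.7 and 265.0 in the hairpin libraries, with values in the order of replicates 1, 2 and 3 throughout. The hairpin libraries were all below the controls, at a log2 fold change of -1.27 (limma adjusted p = 0.000585). Epithelial keratins were abundant, with KRT8 between 22206 and 38009 and KRT18 between 15768 and 18790 normalized counts, and the renal factor PAX8 was detected at a low level (76.7 to 140.3), whereas LHX1 stayed at or under 4.62 normalized counts and CA9, a usual marker of clear cell carcinoma, between 1.85 and 50.7. Markers of other cell types summed to 64.1 to 100.2 normalized counts for immune cells and 495.0 to 698.3 for endothelium, and to 1108 to 1293 in shControl and 872.7 to 1022 in shRNF25 for fibroblasts, where COL1A1 gave nearly all of the sum. PECAM1 gave most of the endothelial sum, within which CDH5 was lower in shRNF25 (3.64 to 8.31 normalized counts, against 73.0 to 198.6 in shControl, limma adjusted p = 0.000213) and KDR was higher (81.3 to 88.4, against 17.3 to 29.8, limma adjusted p = 0.00116). The part of these markers in the results was not tested. The library shControl 1 stood apart, with 12.1% of its reads on mitochondrial genes against 3.58% to 4.44% in the other libraries.

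The share of the mitotic genes called lower in shRNF25 was close to the share over all tested genes. With a limma adjusted p below 0.05, 4 of the 43 genes fell in shRNF25, namely AURKB, PTTG1, NCAPG and CDC25B, and none rose. That is 9.30% of the genes, beside 10.8% of all tested genes that fell and 10.5% that rose. The study's criteria also ask for a change of at least 1.5-fold, and the study used them with DESeq2. Applied to the limma fit, they left AURKB, PTTG1 and NCAPG, 3 genes of 43. Of all tested genes, 7.10% fell and 8.65% rose by them in the limma fit. With DESeq2 on the recovered whole reads, 5 of the 43 genes were lower by these criteria, a count whose share over all genes is not given here. At an unadjusted limma p below 0.05, 14 of the 43 genes were lower and 0 were higher, beside 18.0% and 17.3% of all tested genes.

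The values leaned downward all the same. The log2 fold change was below 0 for 38 of the 43 genes and above 0 for CKS2, BUB3, NUSAP1, ECT2 and FOXM1. The median log2 fold change was -0.32, against -0.01 over all tested genes, of which 51.2% were below 0. The groups did not overlap, with shRNF25 lower, in 10 of the 43 genes (23.3%), beside 21.8% of all tested genes, and did not overlap with shRNF25 higher in 0 of the 43, beside 20.7% of all tested genes. The 10 genes were AURKB, PTTG1, NCAPG, CDC25B, CDK1, CKS1B, MAD2L1, CDC20, INCENP and KIF2C. RNA from bulk cultures cannot tell fewer cells in G2 and mitosis from less of each transcript per cell.

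**Figure D1:**
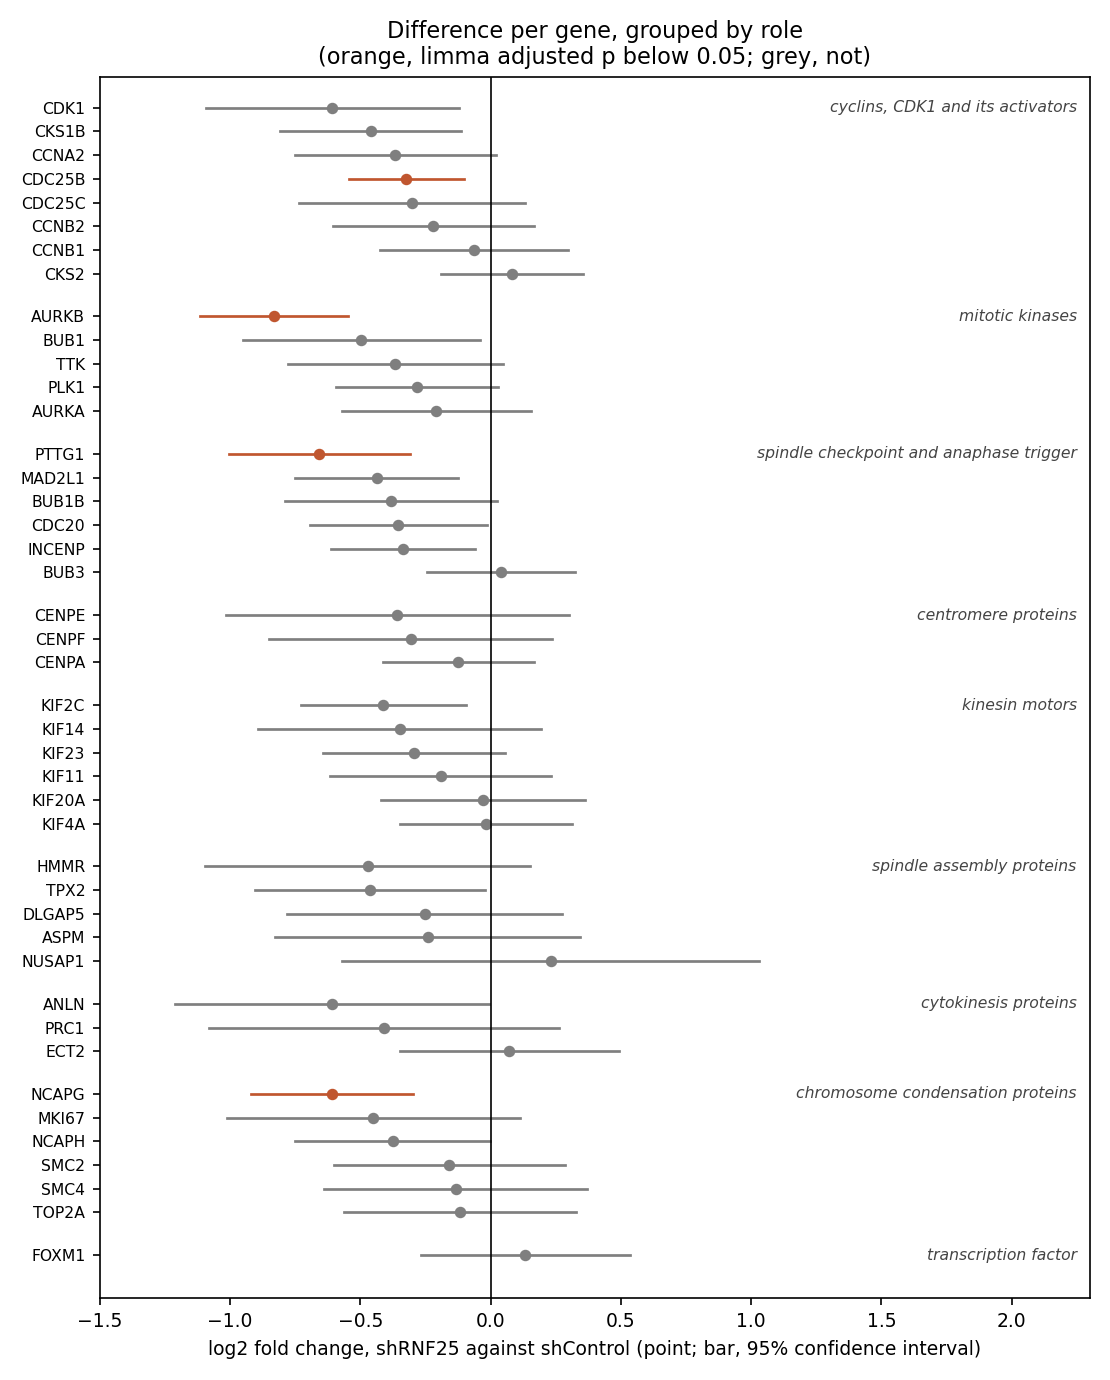
Log2 fold change of each of the 43 genes in shRNF25 against shControl (x axis, on the log2(normalized count + 1) scale), grouped by role on the y axis, with points for the limma estimates and bars for 95% confidence intervals. The 4 genes in orange, AURKB, PTTG1, NCAPG and CDC25B, had an adjusted p below 0.05, and 38 of the 43 points lie left of 0.

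AURKB encodes Aurora B, the kinase of the chromosomal passenger complex that corrects faulty kinetochore attachments. It was listed at 1525.5, 1730.9 and 1321.0 normalized counts in the shControl libraries and at 793.6, 860.7 and 904.6 in the shRNF25 libraries. All shRNF25 libraries lay well below the lowest control library. The shControl mean of 1526 ± 205 (SD, n = 3) compared with a shRNF25 mean of 853.0 ± 55.9 (SD, n = 3), which is 55.9% of it, and the log2 fold change was -0.83 (standard error 0.126, limma adjusted p = 0.00217). AURKB passed the test under all 17 alternative settings that were run, and its highest adjusted p was 0.0204, when shRNF25 replicate 1 was left out.

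PTTG1 encodes securin, which holds separase inactive until the anaphase-promoting complex destroys it. Its normalized count was 1910.2, 1719.6 and 1310.3 in the shControl libraries and 944.0, 1163.6 and 998.0 in the shRNF25 libraries. The groups did not overlap, although the second shRNF25 library came close to the third control. PTTG1 had a log2 fold change of -0.66 (standard error 0.155, limma adjusted p = 0.0164). Leaving out shControl replicate 2, shRNF25 replicate 1 or shRNF25 replicate 3 gave adjusted p-values of 0.0560, 0.0881 and 0.0754.

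NCAPG encodes a HEAT-repeat subunit of condensin I, the ring complex that compacts chromosomes in mitosis. The shControl libraries held 1245.8, 1017.8 and 891.5 normalized counts of NCAPG, and the shRNF25 libraries held 644.2, 690.8 and 714.9. Every shRNF25 library was below the lowest control, and the shRNF25 libraries differed little among themselves. This gave a log2 fold change of -0.61 (standard error 0.138, limma adjusted p = 0.0141), and the adjusted p was 0.0788, 0.0607 and 0.0525 when shRNF25 replicate 1, 2 or 3 was left out. A part of its exons (33.1% of their bases) is covered by LCORL on the other strand, and the sources used here do not say whether reads were counted by strand.

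CDC25B, a phosphatase that activates CDK1 at the G2/M transition, showed the smallest difference of the genes that fell. Its values were 3643.5, 3601.3 and 3448.3 normalized counts in shControl and 2715.3, 3030.0 and 2808.1 in shRNF25. The groups were separate, and the control libraries were closer to each other than for the other genes that fell. At -0.32 its log2 fold change (standard error 0.0976, limma adjusted p = 0.0441) was short of the 1.5-fold criterion, and its adjusted p lay above 0.05 under 9 of the 17 alternatives, with values up to 0.196.

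**Figure D2:**
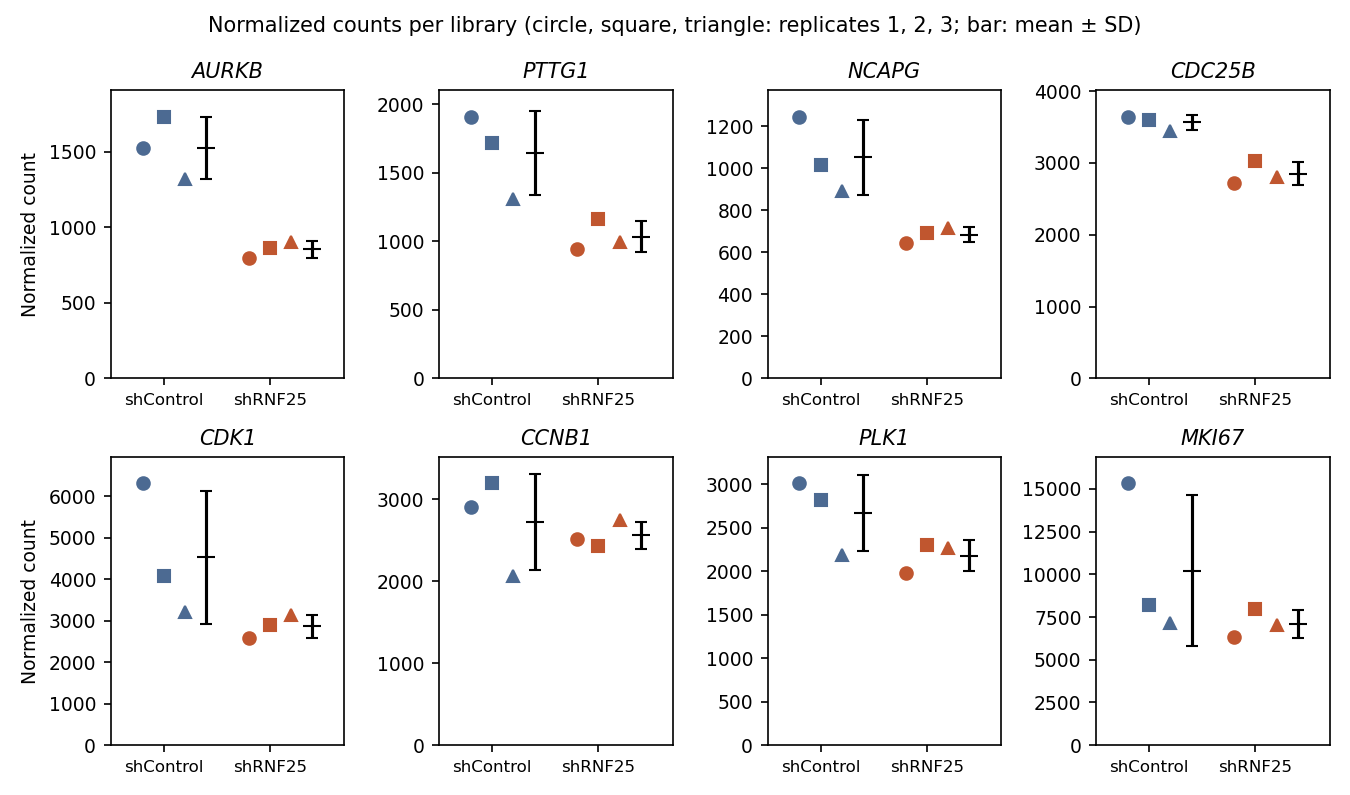
Normalized counts (y axis, from 0) of the 4 genes that fell and of CDK1, CCNB1, PLK1 and MKI67 in each library (circles, squares and triangles for replicates 1, 2 and 3), with bars for the group mean ± SD (n = 3). For AURKB, PTTG1, NCAPG and CDC25B all shRNF25 libraries lie below all shControl libraries, whereas for CDK1 and MKI67 the first control library, at 6306.6 and 15323.7, lies far above the rest.

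The promoters of the genes shared elements that are known from cell cycle genes. In the RefSeq windows of GRCh38.p14, which run from 250 bases before to 50 bases after an annotated start, 38 of the 43 genes had an entry, with 50 windows in all. The letters TTTGAA, the core of the cell cycle genes homology region bound by MuvB complexes, stood on either strand in 62.0% of these windows, against 15.2% of all 35116 windows. Counting TTTGAA together with its variants, which are TTTAAA for one, TTCGAA for another and CTTGAA for the last, on both strands, 37 of the 38 genes had at least 1 match in a window, against 36.7% of all genes, and AURKB was the gene without a match. The letters CCAAT, the box bound by NF-Y, stood on either strand in 72.0% of the windows, against 34.6% of all windows. A match describes these letters and does not show binding. The 250 bases before the start are printed for the 3 genes past the study's criteria in the limma fit and for CCNB1. CCNB1 is printed as a gene that did not pass the test, which does not show that it was unchanged. Each reads 5′ to 3′ on the gene's own strand, with CCAAT or its reverse complement ATTGG and the TTTGAA-type letters in capitals. They lie at chr17:8210250-8210499 on the minus strand (AURKB), chr5:160421605-160421854 on the plus strand (PTTG1), chr4:17810729-17810978 on the plus strand (NCAPG) and chr5:69166900-69167149 on the plus strand (CCNB1). GENCODE 29 places the outermost start of each of these 4 genes farther upstream than the RefSeq start used here, so that the gene model reaches into each stretch and, for AURKB, covers it.
AURKB: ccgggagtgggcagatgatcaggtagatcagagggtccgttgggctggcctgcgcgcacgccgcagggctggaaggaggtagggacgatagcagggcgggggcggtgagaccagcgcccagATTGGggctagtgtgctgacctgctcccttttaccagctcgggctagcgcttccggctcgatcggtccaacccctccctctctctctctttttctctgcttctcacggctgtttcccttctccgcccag
PTTG1: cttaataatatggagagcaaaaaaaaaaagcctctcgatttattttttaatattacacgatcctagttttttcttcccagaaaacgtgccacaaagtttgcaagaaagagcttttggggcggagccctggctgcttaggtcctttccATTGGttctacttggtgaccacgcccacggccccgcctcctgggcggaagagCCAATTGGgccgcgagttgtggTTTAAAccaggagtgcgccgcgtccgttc
NCAPG: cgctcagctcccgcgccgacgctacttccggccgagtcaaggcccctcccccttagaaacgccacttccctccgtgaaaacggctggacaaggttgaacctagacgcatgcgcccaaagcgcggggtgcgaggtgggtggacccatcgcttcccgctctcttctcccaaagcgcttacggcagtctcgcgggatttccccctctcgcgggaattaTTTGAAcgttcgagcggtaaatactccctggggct
CCNB1: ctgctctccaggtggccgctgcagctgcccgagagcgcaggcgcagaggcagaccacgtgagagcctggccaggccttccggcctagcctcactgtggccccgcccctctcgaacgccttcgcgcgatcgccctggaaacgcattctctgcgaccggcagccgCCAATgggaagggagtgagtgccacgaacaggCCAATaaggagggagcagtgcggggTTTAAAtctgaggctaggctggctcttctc
The AURKB stretch held 1 CCAAT box and none of the TTTGAA-type letters, NCAPG held 1 TTTGAA and no CCAAT, and PTTG1 and CCNB1 each held TTTAAA with CCAAT boxes upstream of it. The scanned stretches of the genes that fell thus included some with and some without each element. For AURKB this says nothing of the bases upstream of its outermost start.

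Among the cyclins and the genes around CDK1, CDC25B was the single gene of 8 that passed the test, and the median log2 fold change was -0.31. CDK1, the kinase that drives entry into mitosis, was listed at 6306.6, 4087.7 and 3200.1 normalized counts in shControl and at 2584.1, 2886.0 and 3127.4 in shRNF25. The groups did not overlap, but the highest shRNF25 library was close to the lowest control while the first control stood far above the other controls. Its log2 fold change was -0.61 (95% confidence interval -1.09 to -0.12, limma adjusted p = 0.0756). CCNB1, cyclin B1, had values of 2905.1, 3193.0 and 2065.7 in shControl and 2517.6, 2427.0 and 2746.1 in shRNF25. All shRNF25 values of CCNB1 fell inside the range of the controls, with a log2 fold change of -0.06 (95% confidence interval -0.42 to 0.30, limma adjusted p = 0.809).

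The remaining genes of this class gave estimates on both sides of 0 without passing the test. CKS1B, a small CDK-binding adaptor, had a log2 fold change of -0.46 with no overlap between the groups (limma adjusted p = 0.0632), and its paralog CKS2 had 0.08 (limma adjusted p = 0.666). For CKS1B, 14.1% of the stretches of 50 bases in its longest transcript also occur in pseudogenes of its family. How such reads were counted is not given in the sources used here. CCNA2, the cyclin of S and G2 phase, stood at -0.37, CCNB2, a second B-type cyclin, at -0.22, and CDC25C, another CDK1-activating phosphatase, at -0.30, each with overlap between the groups.

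Of the 5 mitotic kinases, AURKB passed the test and the other 4 did not. PLK1, which acts in centrosome maturation and mitotic entry, was listed at 3006.8, 2813.4 and 2180.2 normalized counts in shControl and at 1975.4, 2294.0 and 2262.9 in shRNF25. The lowest control of PLK1 lay inside the shRNF25 range, and the log2 fold change was -0.28 (95% confidence interval -0.59 to 0.03, limma adjusted p = 0.180). AURKA, the Aurora kinase of the spindle poles, had values of 4032.7, 3547.0 and 2561.1 in shControl and 2704.4, 3065.1 and 2867.2 in shRNF25, so that its lowest library was a control. Its log2 fold change was -0.21 (95% confidence interval -0.57 to 0.16, limma adjusted p = 0.391). BUB1, a checkpoint kinase at kinetochores, and TTK, the kinase that starts checkpoint signalling, had log2 fold changes of -0.50 and -0.37, with limma adjusted p-values of 0.113 and 0.187.

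In the class of the spindle checkpoint and anaphase trigger, PTTG1 fell. The groups did not overlap, with shRNF25 lower, in 4 of the 6 genes, beside 23.3% of the 43 genes and 21.8% of all tested genes. INCENP, a chromosomal passenger protein placed in this class, was among these 4. CDC20, the activator of the anaphase-promoting complex, was listed at 3887.8, 5328.1 and 3703.0 normalized counts in shControl and at 2988.7, 3537.0 and 3476.3 in shRNF25. Unlike for most of the genes, its highest value was in the second control library, and its lowest control was only just above its highest shRNF25 library. The estimate was -0.35 on the log2 scale (95% confidence interval -0.69 to -0.01, limma adjusted p = 0.127). MAD2L1, the checkpoint protein that sequesters CDC20, missed the threshold narrowly at -0.44 (limma adjusted p = 0.0519), INCENP, the scaffold of the chromosomal passenger complex that AURKB belongs to, stood at -0.34 (limma adjusted p = 0.0833), and BUB1B, which encodes the checkpoint protein BubR1, at -0.38 (limma adjusted p = 0.164). BUB3, a partner of BUB1B, was at 0.04 with a 95% confidence interval of -0.25 to 0.33.

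None of the centromere proteins, kinesins or spindle assembly proteins passed the test. CENPA, the histone H3 variant of centromeres, CENPE, a kinetochore motor, and CENPF, a kinetochore protein of late G2, had log2 fold changes of -0.12, -0.36 and -0.31. Among the kinesins, KIF2C, a microtubule depolymerase at centromeres, had the lowest estimate, -0.41, with no overlap between the groups (limma adjusted p = 0.0676). KIF14, a midzone and midbody motor, stood at -0.35, KIF23, which bundles microtubules at the central spindle, at -0.29, and KIF11, the motor that separates the spindle poles, at -0.19. KIF20A, a cytokinesis motor, and KIF4A, a chromosome-bound motor, were nearest to 0, at -0.03 and -0.02. Of KIF4A, 14.4% of such stretches also occur in other genes, nearly all of them in KIF4B.

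The spindle assembly proteins had wide intervals. TPX2, which activates Aurora A on spindle microtubules, stood at -0.46 (limma adjusted p = 0.125), HMMR, a spindle protein first known as a hyaluronan receptor, at -0.47, DLGAP5, a microtubule stabilizer at kinetochore fibres, at -0.25, and ASPM, a spindle pole protein, at -0.24. NUSAP1, a microtubule-binding spindle protein, was listed at 11.1, 10.3 and 5.40 normalized counts in shControl and at 10.9, 10.2 and 9.53 in shRNF25. NUSAP1 thus barely passed the filter of at least 10 in at least 3 libraries, and its log2 fold change of 0.23 had a 95% confidence interval of -0.57 to 1.03.

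Per kilobase of exon, NUSAP1 was the lowest of the 43 genes, with a control mean of 3.10 normalized counts, and PRC1, which crosslinks microtubules of the central spindle, was next, with 6.45. The gene that followed, CDC25C, had 87.4, and CDC20 and TPX2 were highest with 2113 and 1950. In GENCODE 29, AC087721.2, a gene model on the same strand, covers 62.2% of the exon bases of NUSAP1, and AC068831.7 covers 57.6% of those of PRC1. Of the stretches of 50 bases in the longest transcripts of NUSAP1 and PRC1, 68.0% and 63.9% are shared with these models. Neither model was analysed here, the annotation used for counting is not given in the sources used here, and whether the overlap bears on the low values of both genes was not tested. Without NUSAP1 and PRC1, 37 of 41 genes were below 0 and the median log2 fold change stayed at -0.32.

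Of the 3 cytokinesis genes, PRC1 had 29.8, 33.9 and 43.2 normalized counts in shControl and 17.3, 34.2 and 30.5 in shRNF25, with overlapping groups and a log2 fold change of -0.41 (limma adjusted p = 0.360). ANLN, which encodes the actin-binding scaffold anillin of the contractile ring, had a log2 fold change of -0.61, as low as that of NCAPG, but a standard error of 0.267 against 0.138, and did not pass the test (limma adjusted p = 0.137). ECT2, the exchange factor that activates RhoA at the cell equator, stood at 0.07.

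Among the 6 genes of chromosome condensation, NCAPG fell and the others did not pass the test. MKI67, which encodes the proliferation marker Ki-67 that coats mitotic chromosomes, was listed at 15323.7, 8206.1 and 7144.9 normalized counts in shControl and at 6330.0, 7944.0 and 7006.9 in shRNF25. Apart from the first control library, all its values lay in a common range, and the log2 fold change was -0.45 (95% confidence interval -1.01 to 0.11, limma adjusted p = 0.231). TOP2A, the topoisomerase that untangles sister chromatids, had 5855.5, 4396.5 and 3114.8 in shControl and 3789.6, 4123.5 and 4024.3 in shRNF25. Its shRNF25 libraries lay between the second and the third control library, with a log2 fold change of -0.12 (95% confidence interval -0.56 to 0.33, limma adjusted p = 0.711). NCAPH, the kleisin subunit that joins NCAPG in condensin I, stood at -0.38 (limma adjusted p = 0.139), and SMC2 and SMC4, the paired ATPase subunits common to both condensins, at -0.16 and -0.13.

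FOXM1, the transcription factor that activates many G2/M genes, was listed at 3587.2, 2706.7 and 2131.6 normalized counts in shControl and at 2699.8, 3274.8 and 3080.7 in shRNF25. The control libraries spanned the whole range of the shRNF25 libraries. The estimate was 0.13 on the log2 scale (95% confidence interval -0.27 to 0.53, limma adjusted p = 0.633), the highest estimate of the 43 genes after NUSAP1. On the other strand, other genes cover 15.9% of the exon bases of FOXM1, 12.5% of those of PLK1 and 25.6% of those of SMC4.

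The control libraries were spread more widely in these genes than the groups were apart. shControl replicate 1 was the highest control for 37 of the 43 genes (86.0%), against 40.6% of all tested genes, and shControl replicate 3 was the lowest control for 42 of the 43 (97.7%), against 31.8% of all tested genes. Relative to the control mean of each gene on the log2(normalized count + 1) scale, the 43 genes had medians of 0.34, 0.02 and -0.37 in the control libraries and of -0.42, -0.24 and -0.28 in the shRNF25 libraries. The third control library thus lay among the shRNF25 libraries. The labels name no batch, and the library names of the controls do not share a common form. The mean of the shRNF25 libraries was above shControl replicate 3 for 25 of the 43 genes and below it for 18. The median coefficient of variation was 25.2% in shControl and 6.27% in shRNF25, against 18.2% and 6.70% over all tested genes. Reads on the 43 genes made up 0.641%, 0.526% and 0.410% of all reads in the controls and 0.456%, 0.494% and 0.484% in the shRNF25 libraries.

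**Figure D3:**
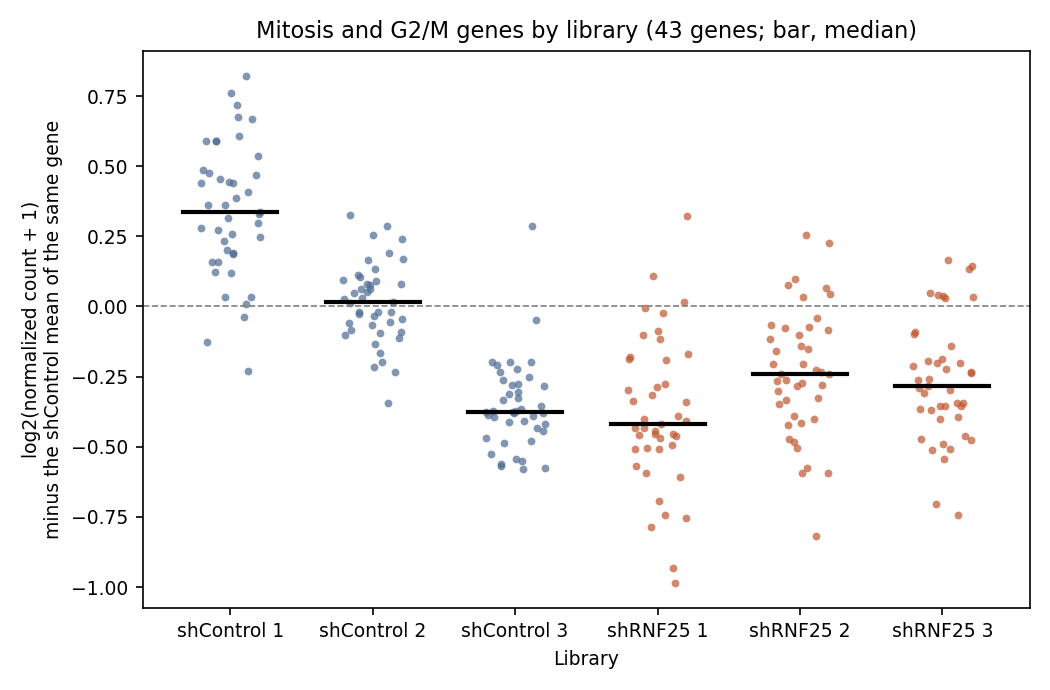
Each point is a gene and each column a library (x axis), with the log2(normalized count + 1) value minus the shControl mean of the same gene on the y axis, and black bars for the median of the 43 genes. The medians of the shControl libraries run from 0.34 to -0.37, and those of the shRNF25 libraries from -0.42 to -0.24.

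The number of genes called turned on which control library was used. Without shControl replicate 1, 8 of the 43 genes fell (18.0% of all tested genes did), namely AURKB, PTTG1, NCAPG, CDC25B, CDK1, CDC20, KIF2C and MAD2L1, and ECT2 rose, with a log2 fold change of 0.31 (limma adjusted p = 0.0244; 15.8% of all tested genes rose). The median log2 fold change was then -0.12, and 29 of the 43 genes were below 0. Without shControl replicate 3, 20 of the 43 genes fell (46.5%, beside 12.0% of all tested genes), 10 of them by at least 1.5-fold, all 43 were below 0 and the median was -0.51. AURKB, PTTG1, NCAPG, CDC25B, CDK1, KIF2C and MAD2L1 fell in both of these fits. The fits have most libraries in common, and the share of all tested genes that fell in both is not given here. With shRNF25 replicate 1, 2 or 3 left out, 1, 2 and 1 genes fell, beside 5.23%, 5.28% and 5.20% of all tested genes. By other tests on the whole reads recovered from the table, edgeR called 3 of the 43 genes lower, AURKB, PTTG1 and NCAPG (10.0% of all tested genes), and DESeq2 called 9 (12.3%), these 3 with CDC25B, CDK1, CKS1B, ANLN, KIF2C and MAD2L1.

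**Figure D4:**
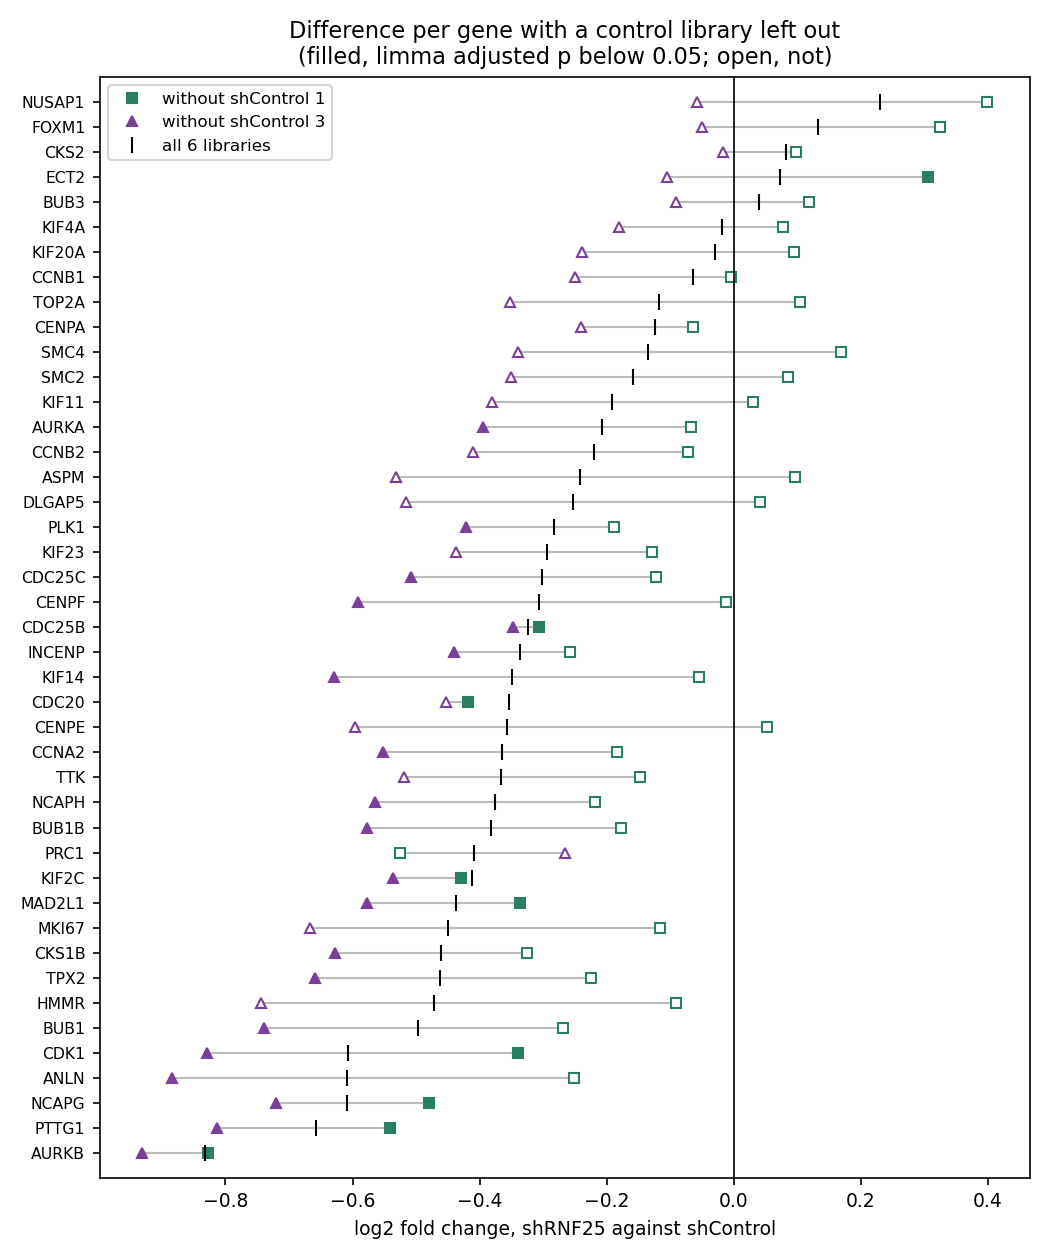
Log2 fold change of the 43 genes (y axis) in shRNF25 against shControl (x axis) with all 6 libraries (ticks), without shControl replicate 1 (squares) and without shControl replicate 3 (triangles), filled where the limma adjusted p was below 0.05. The triangles are all below 0 and 20 are filled, while 9 squares are filled and 14 lie above 0.

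The excess of the first control library over the other two controls was larger for genes of low GC content. The ratio of shControl replicate 1 to the mean of replicates 2 and 3 had a median of 1.41 over the 43 genes and ran from 0.775 for PRC1 to 2.35 for CENPE, against a median of 0.996 over all tested genes. It was 1.58 in the median for the 26 genes with less than 45% GC in their longest transcript, and 1.20 for the other 17. The Pearson correlation of its log2 value with GC content was -0.64 across the 43 genes and -0.50 across 15953 tested genes with a gene model, a description across genes that share the same 3 libraries. The 43 genes had a median GC content of 42.6%, against 48.7% over all tested genes. For the log2 fold change between the groups the correlation with GC content over the 43 genes was -0.08, with medians of -0.30 below 45% GC and -0.34 at or above it. The part of GC content and of the mitochondrial share of shControl replicate 1 in the spread of the controls was not tested.

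**Figure D5:**
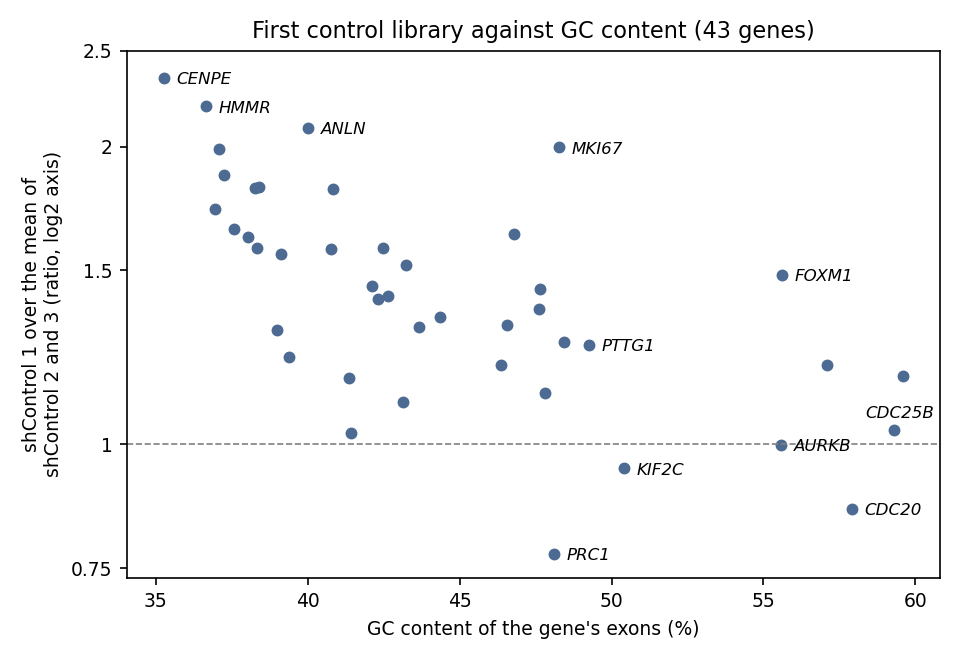
Ratio of shControl replicate 1 to the mean of shControl replicates 2 and 3 for each of the 43 genes (y axis, log2-spaced), with selected genes named. The x axis, although labelled for exons, gives the GC content of each gene's longest transcript in percent. The ratio reaches 2.35 for CENPE and 2.20 for HMMR at low GC content, and is near 1 for AURKB and CDC25B.

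A list of 120 other genes of mitosis was compared in the same fit, and all 120 were tested. Of these, 14 fell (11.7%, beside 10.8% of all tested genes), 0 rose, and the median log2 fold change was -0.23. Of the 14 that fell, the 8 with the lowest log2 fold changes were CKAP2L, a spindle protein (46.7% of its control mean in shRNF25), and then, with their log2 fold changes, MYBL2, the B-MYB factor that acts with MuvB on G2/M promoters (-0.91), NCAPG2, a condensin II subunit (-0.74), UBE2C, the ubiquitin-conjugating enzyme of the anaphase-promoting complex (-0.69), HJURP, the chaperone of CENPA (-0.68), MASTL, the Greatwall kinase that restrains PP2A in mitosis (-0.66), WEE1, the kinase that inhibits CDK1 (-0.65), and LIN52, a MuvB subunit (-0.64). MYBL2 had the lowest adjusted p of them, with 8166, 7746 and 6882 normalized counts in shControl and 3770, 4201 and 4136 in shRNF25 (limma adjusted p = 0.00063). The groups of MYBL2 were far apart, and its controls were close together. For CKAP2L, shControl replicate 1 was 2.05 times the mean of replicates 2 and 3, which raised its control mean. Among the 14, UBE2C had 4359, 5149 and 3993 normalized counts in shControl and 2588, 2940 and 2820 in shRNF25, and the remaining genes that fell were CCNF, CCNH, SPC24, KNSTRN, NFYA and TACC3.

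Of 38 genes of DNA replication, 10 fell (26.3%) and 0 rose, beside 10.8% and 10.5% of all tested genes. The share that fell was 9.30% for the 43 mitotic genes. The median log2 fold change of the replication genes was -0.19, against -0.32 for the 43 mitotic genes. For the replication genes the control libraries were closer together. Their medians relative to the control mean were 0.00, 0.07 and -0.11 in shControl replicates 1, 2 and 3. Of 7 inhibitors of cyclin-dependent kinases, 1 fell (14.3%) and 2 rose (28.6%), beside 10.8% and 10.5% of all tested genes. CDKN1A, which encodes p21, fell with a log2 fold change of -1.09 (limma adjusted p = 0.00393). CDKN2B (log2 fold change 1.00, limma adjusted p = 0.00132) and CDKN2C (1.20, limma adjusted p = 0.000262), both inhibitors of CDK4 and CDK6, rose. CDKN1A was listed at 1529, 2145 and 2711 normalized counts in the controls and at 1046, 906.0 and 969.4 in shRNF25. Among the controls they ran in the order opposite to that of most of the mitotic genes, lowest in the first and highest in the third library.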

How the data were processed

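The authors sequenced total RNA depleted of ribosomal RNA (a stranded kit, per the study's methods) from 6 SW839 libraries, 3 per group. The submitters' processing notes name fastp, HISAT2, HTSeq and GRCh38, and the study's methods name DESeq2. Versions of the first tools, the annotation and the strand setting of the counting are not given in the sources used here. The authors deposited 1 table of normalized counts (a signal, counts divided by a size factor) for 30267 gene symbols. Dividing each library by its smallest increment turned 100% of the values into whole reads, within 0.001 read.

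Values were used as deposited, as log2(normalized count + 1). Genes with at least 10 in at least 3 libraries (16554) were compared in R 4.3.3 with limma 3.58.1 (lmFit, eBayes with a trend, group as the only term), with Benjamini-Hochberg adjustment over all tested genes. A fold change on this scale understates that of genes with few reads. Passing the test means an adjusted p below 0.05. An exact two-sided permutation test of a single gene's 6 values cannot go below p = 0.1, so such p-values are not given per gene. On simulated data with known changes, limma, edgeR and DESeq2 were also run. The simulation gave all libraries the same spread, unlike the controls here, so it cannot show how the tools deal with these data.

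Alternatives were pseudocounts of 0.5 and 5, no filter, a minimum of 50, quantile normalization, rescaling on the median ratio, edgeR 4.0.16 (quasi-likelihood, TMM) and DESeq2 1.42.0 on the recovered whole reads, a replicate block and each library left out. A loess correction for GC content and length and library weights were added after the data had been seen. GC content, length and overlaps come from GENCODE 29 (GRCh38), and promoter windows from RefSeq (GRCh38.p14), both matched by symbol. GC content and the shared stretches of 50 bases were taken from the longest transcript of each gene, length and overlaps from all its exons. Values were given per library for members past the study's criteria and for 8 further genes named by rule (CCNB1, CDK1, PLK1, MKI67, TOP2A, AURKA, CDC20 and FOXM1), and additionally, after their values were seen, for CDC25B, NUSAP1, PRC1, MYBL2, UBE2C and CDKN1A, and CDH5 and KDR were named then too. The members, the lists and these choices were made with earlier results of these data known.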

Additional observations from a re-analysis of the deposited data

How the results depend on the processing

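The count of 4 mitotic genes that fell was 3 to 4 under both other pseudocounts, no filter and a minimum of 50. It was 3 under quantile normalization, rescaling on the median ratio and edgeR. In these settings 5.01% to 12.6% of all tested genes fell. The count was 9 with DESeq2 (12.3% of all tested genes), 9 with the GC and length correction (16.8%) and 16 with library weights (18.1%). It was between 1 and 20 when single libraries were left out (5.2% to 18% of all tested genes). Between 0 and 1 of the 43 genes rose when single libraries were left out, beside 768 to 2612 of the 16554 tested genes. With the added criterion of 1.5-fold, the 3 genes became 1 under quantile normalization, 5 with DESeq2 and between 1 and 10 without single libraries. Of all tested genes, 7.10% were lower by this criterion in the main fit. Their share by this criterion under the alternatives is not given here. Of the 120 other mitotic genes, the 14 that fell became 8 without a filter (5.01% of all tested genes fell). The number was also 8 under quantile normalization (9.97%) and after rescaling on the median ratio (8.62%). It was 34 with the GC and length correction (16.8%) and 34 with library weights (18.1%). Without single libraries it was between 5 and 35 (5.2% to 18%). The 0 that rose became 1 under quantile normalization (1743 of 16554 tested genes rose) and 1 with the GC and length correction (2036 of 15953). With library weights 4 rose (2726 of 16554), and without single libraries between 0 and 5 (768 to 2612 of 16554).

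With the replicate block, 4 of the 43 genes fell, beside 9.22% of all tested genes, with CDK1 taking the place of CDC25B (limma adjusted p = 0.113). Deviations of same-numbered libraries had correlations of -0.06, -0.09 and 0.05, so the numbers were not treated as pairs.

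The sign of the log2 fold change turned for some genes. Under quantile normalization it was 0.0501 for CCNB1, 0.0605 for KIF20A, 0.0799 for KIF4A, -0.22 for NUSAP1 and 0.0325 for TOP2A. After rescaling on the median ratio, which moved the median of all genes to 0.0491, KIF20A was at 0.0323 and KIF4A at 0.0446. With library weights SMC4 was at 0.0627. Without single libraries the log2 fold change ran from -0.25 to 0.0635 for CCNB1, -0.0172 to 0.16 for CKS2, -0.0902 to 0.12 for BUB3, -0.60 to 0.0530 for CENPE, -0.38 to 0.0308 for KIF11, -0.24 to 0.0944 for KIF20A, -0.18 to 0.0774 for KIF4A, -0.0577 to 0.40 for NUSAP1, -0.52 to 0.0417 for DLGAP5, -0.53 to 0.0959 for ASPM, -0.11 to 0.31 for ECT2, -0.35 to 0.10 for TOP2A, -0.35 to 0.0855 for SMC2, -0.34 to 0.17 for SMC4 and -0.0505 to 0.32 for FOXM1. Of all 729 values of single genes under the alternatives, 643 kept their direction and their side of the threshold and 27 changed sign. With the sign kept, 44 passed the threshold under the alternative but not in the main fit, and 15 the other way round. The cause was not tested.

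Depth was alike in all libraries and limits only NUSAP1 and PRC1, which rested on few reads.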
